A study of Mus musculus with 6 samples.

Results

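The surface genes described here are Ly6d, Ly6a, Ly6e, Ly6c1, Thy1, Cd24a and Cd52. Their probe sets were chosen by gene symbol alone, as all probe sets named for these 7 genes in the platform annotation of the 3 array types. Of 25470 probe sets used, 12 carried the symbol of a single one of these genes. They covered 5 genes, each measured in both experiments, out of 3237 genes measured in both. A further probe set was named for both Ly6c1 and Ly6c2, and it is given apart. No probe set was named for Ly6a in the annotation used here, and Ly6a was not analysed here.

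Thymocytes of Sox13 transgenic mice were set against those of wild-type littermates. Both genotypes were on the C57BL/6 strain, and all mice were females 6 weeks old. CD4+CD8+ double-positive thymocytes, which are midway between progenitors and mature alpha-beta T cells, were sorted by flow cytometry, each sort pooling the thymocytes of at least 2 mice. RNA went onto 2 complementary Affymetrix arrays in experiment 1 (Mu11K A and Mu11K B) and onto the U74A version 2 array in experiment 2, with 1 transgenic and 1 wild-type array of each type. The sources used here do not name the transgene's promoter or integration site. Sox13 encodes an HMG-box transcription factor linked to gamma-delta T cells.

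Most of these genes encode small proteins held in the outer leaflet of the cell membrane by a glycosylphosphatidylinositol (GPI) anchor. Ly6 proteins share a cysteine-rich, 3-finger fold, and their genes lie side by side in a cluster on mouse chromosome 15. Thy1 is an immunoglobulin-superfamily protein of mouse T lineage cells, Cd24a (heat-stable antigen) is abundant on immature thymocytes and is lost as they mature, and Cd52 is a short, heavily glycosylated lymphocyte surface peptide.

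Values are intensities scaled so that the 2% trimmed mean of each array is 500. Anything lower than 100 was raised to this floor, and genes were tested only if a probe set exceeded it in both experiments. The share of probe sets above the floor was between 46.9% and 57.4% on the 6 arrays. The sort markers were bright. Cd4 read 7854 in the transgenic and 7876 in the wild-type sample of experiment 1, and 5040 against 6496 in experiment 2. Cd8a read 15638 against 16859 and 15638 against 17759. Sox13 itself was at least 59.5-fold higher in the transgenic sample of experiment 1 and 6.39-fold higher in experiment 2.

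**Figure D1:**
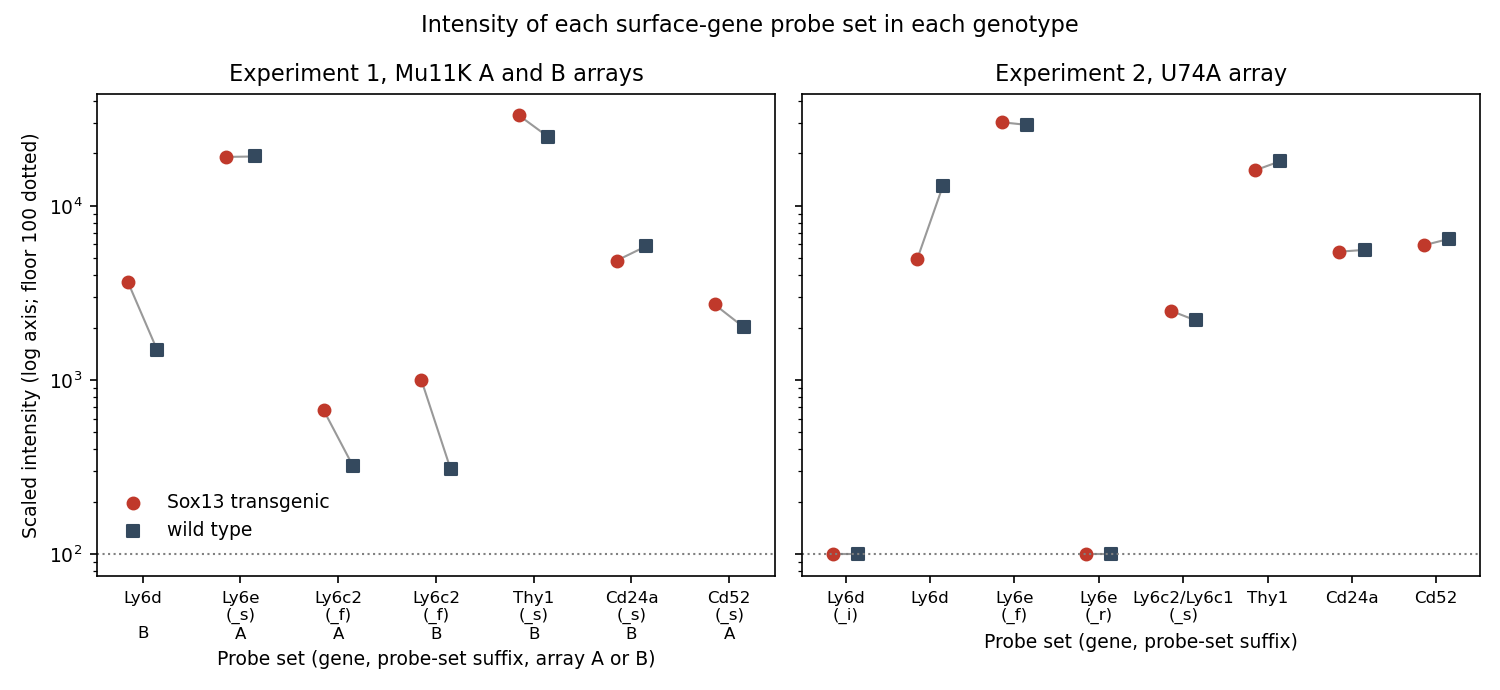
Scaled intensity on a log axis for each probe set of the surface genes and of Ly6c2, with the transgenic array (red circles) left of the wild-type array (dark squares) and 1 array per genotype and array type. Letters in brackets are the probe-set suffixes, the dotted line is the floor of 100, and levels of different probe sets are not comparable (suffix s marks probes that can match several similar transcripts). The Ly6d lines slope in opposite directions in the experiments, while those of Ly6e are flat.

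Ly6d differed by more than 2-fold between the genotypes in each experiment, and in opposite directions. Ly6d, the ThB antigen, is found in the mouse on B lineage cells and on many thymocytes. In experiment 1 its probe set read 3641 in the transgenic sample, against 1480 in the wild type. In experiment 2 the main probe set read 4973 in the transgenic sample, against 12931 in the wild type. Transgenic cells thus had 2.46-fold more Ly6d signal in experiment 1, and in experiment 2 the wild type had 2.60-fold more. The log2 ratios of transgenic over wild type were 1.30 and -1.38. A further U74A probe set for Ly6d, of the type made with fewer probes (suffix i), was below the floor on both arrays, at 4.63 in the transgenic and 38.8 in the wild-type sample, and gave no ratio.

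The Ly6d differences were far from the centre of their arrays. On Mu11K B, 6.15% of the probe sets above the floor were 2-fold or more higher in the transgenic sample (counting those with 1 or both arrays above it), and 3.50% had a log2 ratio as high as that of Ly6d. Among the 870 probe sets above 1000 on both Mu11K B arrays, 3.91% were 2-fold or more higher, and 14 were as high as Ly6d, itself included. On U74A, 0.563% of the probe sets were 2-fold or more lower in the transgenic sample. Among the 1935 probe sets above 1000 on both U74A arrays, Ly6d had the lowest log2 ratio, with 1 other also 2-fold or more lower (0.103% in all). These shares describe single pairs of arrays, for which there is no replicate. The threshold of 1000 was chosen after the values were seen.

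Over both experiments the Ly6d ratios averaged out. Its log2 ratios had a mean of -0.04 ± 0.50 (limma SE, n = 2 experiments; 95% interval -1.12 to 1.04; adjusted p = 0.990). Each p-value rests on the spread between these pooled samples and, through limma, on that of all genes. Of the 3237 genes measured in both experiments, Ly6d was the 1 gene (0.0309%) with a difference of 2-fold or more in opposite directions. The gap between its log2 ratios was 2.68, the 12th largest of all genes. Whether the experiments differ for Ly6d could not be tested, since each holds 1 sample per genotype. Experiment and array type cannot be told apart.

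**Figure D2:**
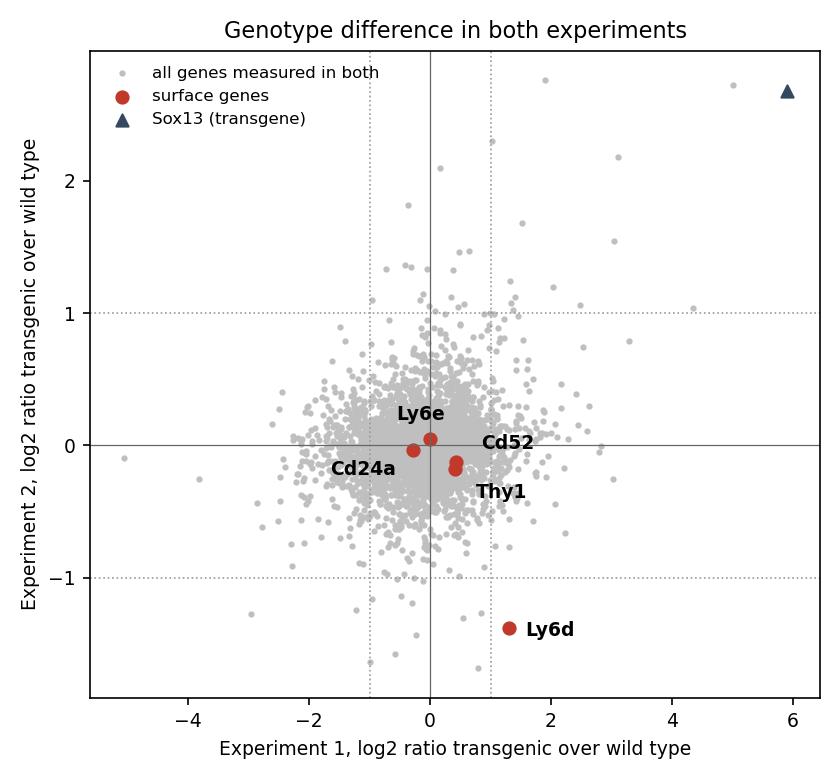
Log2 ratio of transgenic over wild type in experiment 1 (horizontal) and experiment 2 (vertical) for the 3237 genes measured in both (grey), the 5 surface genes (red) and Sox13 (dark triangle), with dotted lines at 2-fold. Ly6d lies alone in the lower right corner, at 1.30 and -1.38, while Ly6e, Thy1, Cd24a and Cd52 lie within the 2-fold lines.

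The genes nearest to Ly6d in these ratios were Zfr2 (0.84 and -1.26) and H1f10 (0.80 and -1.69), at distances of 0.47 and 0.58 on the log2 scale, over 2 experiments and 2618 other genes above the floor on all arrays. The other surface genes had close neighbours in a crowded region. The nearest to Ly6e was Actr3, to Thy1 Aldh7a1, to Cd24a Atp2a3 and to Cd52 Psmd4, each within 0.02.

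Markers of B cells, which also carry Ly6d, were measured beside it. In experiment 1 the B cell list had a median log2 ratio of 0.90, with 7 of 8 genes higher in the transgenic sample, and in experiment 2 a median of 0.72, with 8 of 10 higher. Over all genes the medians were -0.07 and -0.03. The summed intensity of the list above the floor was 9597 in the transgenic and 5599 in the wild-type sample on Mu11K A, 25396 against 15262 on Mu11K B and 19408 against 16269 on U74A. The class II genes H2-Aa (1.34 and 1.08) and H2-Eb1 (0.56 and 0.62), the invariant chain gene Cd74 (1.23 and 0.95) and the kinase gene Blk (1.36 and 1.02), which gamma-delta T cells express too, were higher in both experiments. Blk was at the floor in the wild-type sample on both of its U74A probe sets and on 1 of its Mu11K A probe sets, and the Mu11K B probe sets for H2-Eb1 disagreed (-0.25 and 1.37). H2-Ab1 (1.591 and 0.462) and the immunoglobulin gene Ighm (0.413 and 0.481) were also higher in both experiments. Cd79b, a B cell receptor component above the floor on every array that measured it, had log2 ratios of 0.58 and -0.23, the signs of Ly6d. Ms4a1, which encodes CD20, had ratios of -0.14 and 0.83, with both wild-type U74A readings below the floor. Of the 8 genes measured in both 0 passed limma, and 4 had an unadjusted p under 0.05. Cd79a, a defining B cell receptor component, was below the floor in experiment 1 and read 177.3 in the transgenic against 100.6 in the wild-type sample in experiment 2. Cd22, Cd72, Ebf1 and Vpreb3 were below the floor on Mu11K A and on U74A. Pax5 was below it on Mu11K B and had a log2 ratio of -0.14 in experiment 2. Ly6d thus had the sign of the list's median in experiment 1 and the opposite sign in experiment 2. The part of B cells in the Ly6d values was not tested.

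Ly6e was bright and nearly equal in the genotypes. Ly6e, also known as thymic shared antigen 1 or Sca-2, marks immature thymocytes in the mouse. Its Mu11K A probe set read 19072 in the transgenic and 19179 in the wild-type sample. On U74A a probe set of the sequence-family type (suffix f), which may also read related transcripts, gave 30155 in the transgenic and 29109 in the wild-type sample. A further U74A probe set (suffix r, chosen with relaxed design rules) was below the floor on both arrays, at 76.3 and 38.2. The log2 ratios were -0.01 and 0.05, with a mean of 0.02 ± 0.34 (limma SE, n = 2 experiments; 95% interval -0.71 to 0.75; adjusted p = 0.991). Differences beyond 1.68-fold in either direction lie outside that interval. The sign in experiment 1 flipped with the scaling, between -0.16 after loess and 0.17 with equal medians.

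Thy1 was bright in all samples. In experiment 1 it read 32991 in the transgenic sample and 24809 in the wild type, and in experiment 2 it read 15960 in the transgenic sample and 18016 in the wild type. The log2 ratios were 0.41 and -0.17, so the genotypes were ordered differently in the experiments. Their mean was 0.12 ± 0.35 (limma SE, n = 2 experiments; 95% interval -0.63 to 0.87; adjusted p = 0.975). Of the Mu11K B probe sets above the floor, 20.4% had a log2 ratio as high as that of Thy1, and of the U74A probe sets 29.0% had one as low.

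Cd52 followed the same order as Thy1. It read 2713 in the transgenic and 2006 in the wild-type sample of experiment 1, and 5929 in the transgenic and 6453 in the wild-type sample of experiment 2. The log2 ratios were 0.44 and -0.12, with a mean of 0.16 ± 0.35 (limma SE, n = 2 experiments; 95% interval -0.59 to 0.90; adjusted p = 0.961). On Mu11K A, 18.2% of the probe sets above the floor had a log2 ratio as high, so this difference was common on its array.

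Cd24a was the 1 gene of the 5 that had the same sign in both experiments, with less signal in the transgenic samples. It read 4850 in the transgenic and 5860 in the wild-type sample of experiment 1, a difference of -17.2%. In experiment 2 it read 5450 in the transgenic and 5582 in the wild-type sample, a difference of -2.36%. The log2 ratios, -0.27 and -0.03, had a mean of -0.15 ± 0.34 (limma SE, n = 2 experiments; 95% interval -0.89 to 0.58; adjusted p = 0.961). The difference did not pass the test, and 41.9% of the Mu11K B probe sets above the floor had a log2 ratio as low.

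Genes of mature single-positive thymocytes, the stage at which Cd24a is low, were measured beside it. Of 11 genes above the floor in experiment 1, 10 were higher in the transgenic sample (median log2 ratio 0.72), and of 10 in experiment 2, 7 were higher (median 0.11). The class I gene H2-D1 (1.70 and 0.50), the tetraspanin gene Cd53 (0.72 and 0.49) and Socs3 (3.29 and 0.79), whose product restrains cytokine receptors, were higher in both, and Emb (-0.99 and -0.53) was lower. The summed intensity of the list was 22188 in the transgenic and 11643 in the wild-type sample on Mu11K A, 5364 against 1826 on Mu11K B and 27030 against 22381 on U74A. S1pr1, which lets mature thymocytes leave the thymus, was below the floor on Mu11K A and on U74A. Cd44 was below it on Mu11K B and on U74A, Ccr7 and Klf2 on U74A, and Il7r on Mu11K A. Of the 9 genes measured in both experiments 0 passed limma over all genes and 4 had an unadjusted p under 0.05, and the list's part in the Cd24a values was not tested. In such sorted pools, fewer cells of a type and less RNA per cell cannot be told apart.

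Ly6c1 could not be read on its own. Ly6c1 and its neighbour Ly6c2 encode the Ly6C antigen of monocytes, plasma cells and memory T cells, which interferon induces in the mouse. The U74A probe set named for both genes read 2501 in the transgenic and 2196 in the wild-type sample, a log2 ratio of 0.19. In experiment 1, 2 family-type probe sets (suffix f) were named for Ly6c2 alone. The Mu11K A probe set read 673.2 in the transgenic and 322.0 in the wild-type sample, and the Mu11K B probe set 1003 in the transgenic and 308.3 in the wild-type sample. The transgenic sample was thus 2.09-fold and 3.25-fold higher, with a mean log2 ratio of 1.38 over both probe sets of the same extract. On Mu11K A, 4.56% of the probe sets above the floor were 2-fold or more higher in the transgenic sample, and 3.92% were as high as Ly6c2. On Mu11K B, 1.71% were as high. If the shared probe set is counted for Ly6c2, its mean log2 ratio is 0.79 ± 0.37 (limma SE, n = 2 experiments; adjusted p = 0.662), which does not pass.

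The upstream sequences of Ly6c1 and Ly6c2 are shown because the U74A probe set could not be assigned to 1 of these close relatives, although the probes read transcripts and not these windows. The sequences, from RefSeq on build GRCm38.p6, are the 250 bases before a transcription start, minus strand, 5′ to 3′, at chr15:75048838-75049087 for Ly6c1 and chr15:75111972-75112221 for Ly6c2. Capitals mark the longest run of bases that both windows share, 20 bases long.
Ly6c1: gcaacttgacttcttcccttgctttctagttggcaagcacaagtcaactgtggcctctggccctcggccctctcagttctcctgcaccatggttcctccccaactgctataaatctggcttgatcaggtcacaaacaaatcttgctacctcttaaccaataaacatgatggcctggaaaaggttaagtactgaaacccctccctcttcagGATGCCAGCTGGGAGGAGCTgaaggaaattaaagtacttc
Ly6c2: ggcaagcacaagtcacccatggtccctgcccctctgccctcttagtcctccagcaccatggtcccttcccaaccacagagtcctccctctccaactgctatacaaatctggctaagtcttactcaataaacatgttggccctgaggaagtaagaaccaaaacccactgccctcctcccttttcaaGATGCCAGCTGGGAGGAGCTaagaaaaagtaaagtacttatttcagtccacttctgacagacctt

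Of 216 aligned bases, 164 were identical (75.9%). The pair of windows was chosen for the most identical bases among the starts available for both genes. Neither window held the interferon regulatory factor core GAAANNGAA, the gamma-activated site TTCNNNGAA or the Sox core AACAAT on either strand. The first of these occurs in 7.13%, the second in 7.02% and the Sox core in 9.42% of the 32851 promoter windows of this length. The GAA that ends the second can also begin the first, so matches to them can overlap. No match says only that the letters are not in these windows.

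Interferon response genes were measured beside the Ly6C probe sets. In experiment 1 their median log2 ratio was 0.63, with 11 of 16 genes higher in the transgenic sample, and in experiment 2 it was 0.40, with 14 of 16 higher. Isg15, a ubiquitin-like modifier (2.04 and 1.20), Usp18, which removes it (1.52 and 1.68), and the transcription factor genes Irf8 (1.05 and 0.99) and Irf9 (0.94 and 0.87) were higher in both. The interferon-induced GTPase gene Igtp was lower in both (-0.74 and -0.55). Other genes of the list were lower in experiment 1 and higher in experiment 2, among them Ifit2 (-1.78 and 0.37, at the floor in the transgenic sample of experiment 1), Gbp2 (-1.26 and 0.14) and Ifi47 (-0.64 and 0.62). Of the 13 genes measured in both experiments 0 passed limma over all genes, and 5 had an unadjusted p under 0.05. Irf9 was at the floor in the wild-type sample of experiment 1. The summed intensity of the list was 13094 in the transgenic and 9085 in the wild-type sample on Mu11K A, 13463 against 9521 on Mu11K B and 19479 against 16830 on U74A. Ifit1, Ifit3 and Mx1, defining interferon-induced genes, were below the floor on Mu11K A and on U74A. Whether this signal plays a part in the Ly6C values was not tested.

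Myeloid genes, markers of other cells that carry Ly6C, had a median log2 ratio of -0.12 in experiment 1, with 3 of 7 higher, and of 0.61 in experiment 2, with 6 of 10 higher. Their summed intensity was 2545 in the transgenic and 2641 in the wild-type sample on Mu11K A, 1104 against 1169 on Mu11K B and 2313 against 1565 on U74A. Csf1r, the receptor of the monocyte growth factor, was below the floor in experiment 1. In experiment 2 its brighter probe set read 104.2 in the transgenic and 193.8 in the wild-type sample, a log2 ratio of -0.89. Spi1 (-0.67) and Csf3r (-0.14) were lower in experiment 2 too. The Mu11K A sum was mostly the lysozyme gene Lyz2, at 1627 in the transgenic and 2024 in the wild-type sample. On U74A the brighter Lyz2 probe set read 254.5 in the transgenic sample, while the wild-type reading of 54.52 lay under the floor. Lyz2 (-0.315 and 1.348), Cd68 (-0.125 and 0.635) and S100a8 (-0.407 and 0.59) were thus lower in experiment 1 and higher in experiment 2. Tyrobp was higher in experiment 2 (0.715) and Fcer1g in experiment 1 (0.301). The protease gene Ctss (1.32 and 1.24) and Mpeg1 (0.51 and 0.66), which encodes a pore-forming protein of macrophages, were higher in both experiments, and Cd14 (-0.12 and -0.19) was lower in both. Of the list's genes 0 passed limma, and 1 had an unadjusted p under 0.05. The part of myeloid cells in the Ly6C values was not tested.

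**Figure D3:**
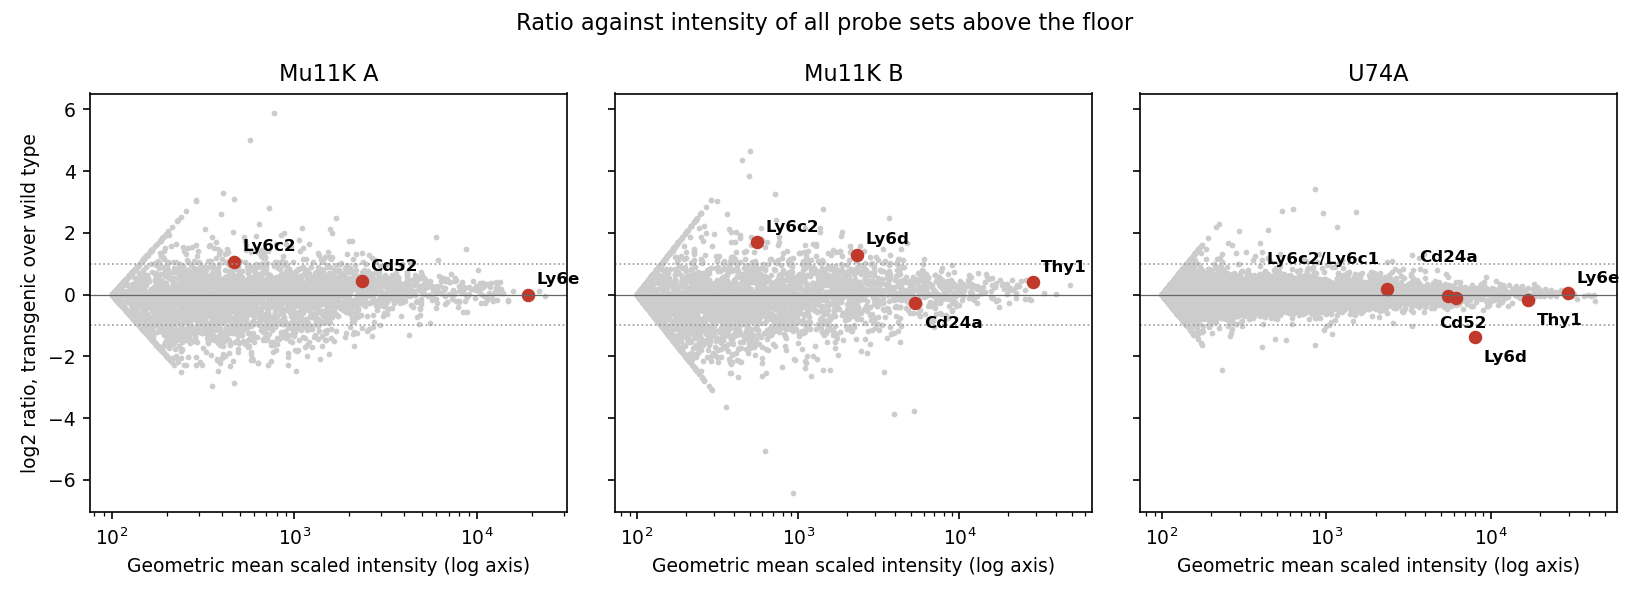
Log2 ratio of transgenic over wild type against the geometric mean scaled intensity (log axis) for all probe sets with 1 or both arrays above the floor, by array type, with the probe sets of the surface genes and of Ly6c2 in red and dotted lines at 2-fold. The ratios of bright probe sets spread less on U74A, where Ly6d stands apart at -1.38, than on Mu11K A and B.

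The spread of the arrays sets how these differences read. Among probe sets above 1000 on both arrays, the SD of the log2 ratios was 0.44 on Mu11K A, 0.58 on Mu11K B and 0.24 on U74A. The ratios of Thy1, Cd24a and Cd52 were smaller than the SD of their array in both experiments, and so were those of Ly6e. Those of Ly6d were 2 or more times the SD of their array. No surface gene passed limma (0 of 5, against 0.154% of the 3237 genes, all higher), and 0 of 5 had an unadjusted p under 0.05, against 6.43% of all genes. Opposite signs in the experiments were found for 4 of 5, against 45.7% of all genes.

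Most of the rest of the Ly6 cluster had no probe set of its own, and most of the genes that had one were dark. Of 28 protein-coding genes that RefSeq places from Psca to Ly6h on chromosome 15, 9 had a probe set of their own here, and 4 of them, Ly6d, Ly6e, Ly6c2 and Ly6g, were above the floor on an array. Ly6g, the neutrophil antigen, barely crossed it, at 81.8 in the transgenic and 113.1 in the wild-type sample on Mu11K B, and was below it in experiment 2. Ly6f, Ly6h, Psca, Slurp1 and Gml were below the floor wherever they were measured. In the wider list of 30 Ly6 and uPAR relatives, 4 genes were above the floor in experiment 1, with 2 higher and 2 lower (median log2 ratio 0.03), and 1 in experiment 2, with a log2 ratio of -0.02.

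Other GPI-anchored surface genes and the genes that build the anchor were mixed in direction. Of 8 such surface genes in experiment 1, 6 were higher in the transgenic sample (median log2 ratio 0.20), and of 7 in experiment 2, 4 were higher (median 0.07). The semaphorin gene Sema7a (1.05 and 0.49) and Gfra1 (0.72 and 0.82 against the floor), a co-receptor of neurotrophic factors at the floor in both wild-type samples, were higher in both. The U74A probe sets for Sema7a gave log2 ratios of 0.214 and, for the dimmer, 0.761 with the wild-type sample at the floor. Gpc1 (0.47 and 0.07) was higher in both experiments as well. Cd14, the monocyte receptor for lipopolysaccharide, was lower in both, as given above. Of the anchor synthesis genes, 6 of 9 were higher in experiment 1 (median 0.37) and 6 of 13 in experiment 2 (median -0.05). Pgap2, which acts in remodelling the anchor's lipid, had log2 ratios of -1.13 (at the floor in the transgenic sample) and -0.25, and Mpdu1, which helps mannose donors to be used, of 0.44 and 0.13. Dpm2 (0.368 and 0.035) was higher in both experiments and Pigq (-0.037 and -0.125) lower in both. In both lists 0 genes passed limma in either direction, and an unadjusted p under 0.05 was found for 2 of 6 surface genes and 0 of 8 anchor genes.

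**Figure D4:**
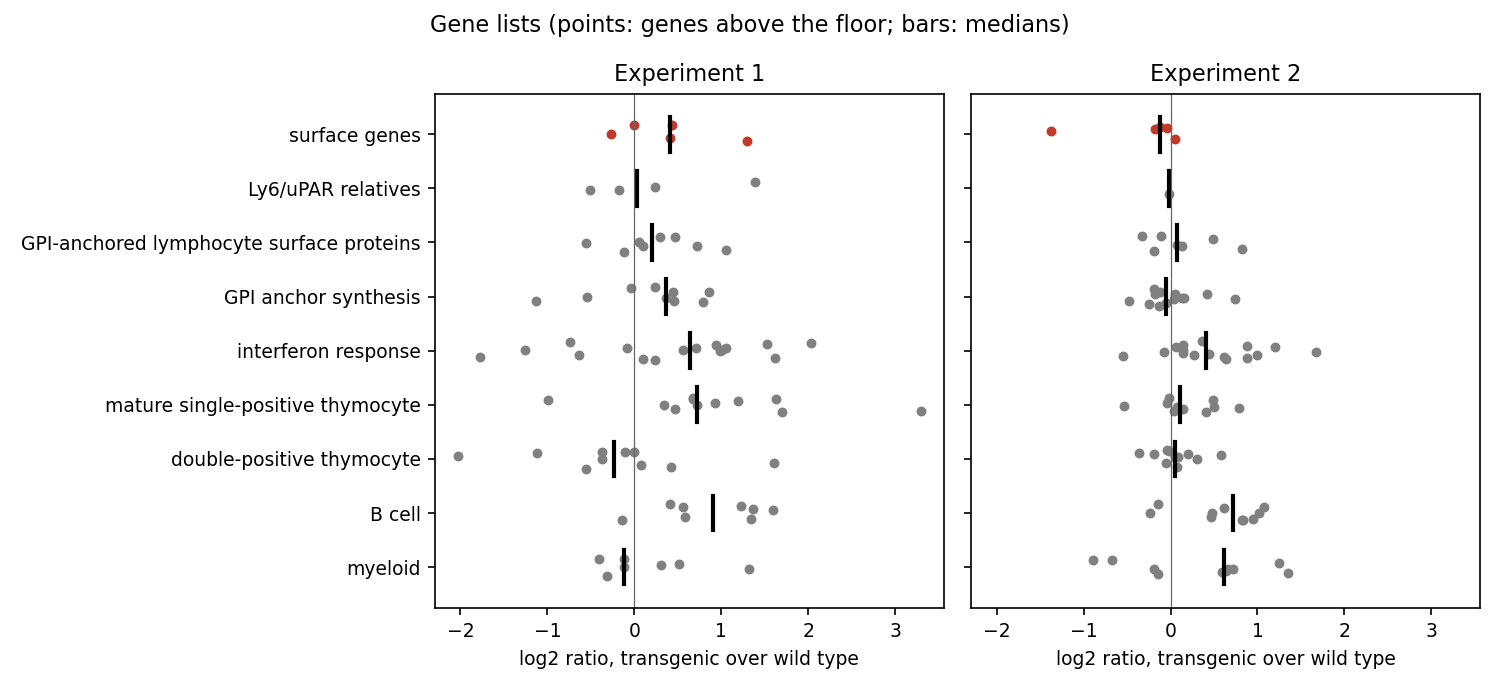
Log2 ratio of transgenic over wild type in experiment 1 (left) and experiment 2 (right) for the surface genes (red) and for genes of 8 lists (grey), each point a gene above the floor and each bar the median of its list. The B cell and interferon medians lie right of 0 in both experiments, while the surface genes have a median of 0.41 in experiment 1 and of -0.12 in experiment 2.

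As a set, the 5 surface genes had a median log2 ratio of 0.41 in experiment 1, with 3 higher and 2 lower, and of -0.12 in experiment 2, with 1 higher and 4 lower. The medians of all genes were -0.07 and -0.03. The double-positive thymocyte list, which holds genes of the sorted stage, had medians of -0.24, with 3 of 10 higher, and of 0.05, with 6 of 11 higher. Its summed intensity was 15229 in the transgenic and 18214 in the wild-type sample on Mu11K A, 59093 against 64879 on Mu11K B and 118423 against 121866 on U74A. Of its genes, Ptcra (1.61 and 0.58), which the progenitor list below also holds, and Cd3d (0.07 and 0.09) were higher in both experiments. Cd1d1 (-1.12 and -0.05), Cd8a (-0.11 and -0.18), Dntt (-0.369 and -0.017) and Cd4 (-0.004 and -0.366) were lower in both. The recombination genes Rag1 (-0.556 and 0.304) and Rag2 (-2.025 and 0.078) were lower in experiment 1 and higher in experiment 2. So was Cd3g (-0.374 and 0.204), while Cd3e had the reverse signs (0.423 and -0.046).

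Other lists held genes that passed limma, all of them higher in the transgenic samples. In the double-negative progenitor list, genes of the stage before the sorted one, 5 of 8 genes were higher in experiment 1 (median log2 ratio 0.82) and 4 of 7 in experiment 2 (median 0.30). Its summed intensity was 8131 in the transgenic and 1130 in the wild-type sample on Mu11K A, 7606 against 2274 on Mu11K B and 7418 against 5336 on U74A. On Mu11K A a Notch1 probe set read 3957 in the transgenic and 715.8 in the wild-type sample, and Dtx1 read 3221 against a level below the floor. Dtx1, a target of Notch signaling, rose, with log2 ratios of 5.01 and 2.72 (limma, adjusted p = 0.00428). Notch1 (2.63 and 0.30), Notch3 (1.42 and 0.65) and Ptcra (1.61 and 0.58) were higher in both experiments too. Cd34 (-0.74) and Kit (-0.21) were lower in experiment 1 and below the floor on U74A. Hes1 was below the floor on Mu11K A and lower in experiment 2 (-0.32). Gata2 (-0.03 and -0.14) was lower in both, and Il2ra, a defining gene of that stage, was below the floor on every array.

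The gamma-delta T cell list had medians of 0.66, with 7 of 8 genes higher, and of 1.04, with 6 of 8 higher, and its 1 call was Sox13 itself. Its summed intensity was 10210 in the transgenic and 2900 in the wild-type sample on Mu11K A, 8833 against 1923 on Mu11K B and 8498 against 3345 on U74A. The list holds the transgene. Sox13 alone read 5951 in the transgenic sample on Mu11K A, with the wild type below the floor, and 3832 against 599.6 on U74A. On Mu11K B the granzyme gene Gzma alone read 8604 against 1535. Gzma (log2 ratios of 2.49 and 1.06) and Blk, as given above, were higher in both experiments. So was Trgv1 (1.02 and 2.30), with some wild-type readings at the floor in both. Other genes of the list went the other way. Maf was lower in experiment 1 (-1.195) and below the floor on U74A. Il2rb was below the floor on Mu11K A and lower in experiment 2 (-0.257). Id3 had log2 ratios of 0.219 and -0.406, and Cd160 was below the floor on U74A. In the erythroid list the medians were near 0 (0.08 and -0.07), but the globin genes Hba-a1 (1.90 and 2.76; limma, adjusted p = 0.0154) and Hbb-b2 (3.04 and 1.54; limma, adjusted p = 0.0399) rose. The 2 Mu11K B probe sets for Hba-a1 disagreed (-0.03 and 3.83), and the wild-type level of Hbb-b2 in experiment 2 was below the floor. Car2 (-0.985 and -1.636, at the floor in both transgenic samples) and Gata1 (-0.52 and -0.07) were lower in both experiments. Alas2 and Epor were below the floor wherever they were measured. The summed erythroid intensity was 709.4 in the transgenic and 888.0 in the wild-type sample on Mu11K A, 3347 against 941.2 on Mu11K B and 1934 against 764.5 on U74A. The part of these cells in the values of the surface genes was not tested.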

How the data were processed

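RNA of sorted thymocytes was hybridised to 6 arrays, 3 per genotype. The deposited values are probe-set intensities on a linear scale. The series text says that the authors used Microarray Analysis Software versions 4 and 5, and the submitters' processing notes name MAS5 for the U74A arrays. The scaling target is not given in the sources used here. Mu11K intensities include negative values (17.3% to 29.2% of an array).

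Control probe sets and 21 Mu11K A probe sets with no wild-type value were left out. A single factor brought the 2% trimmed mean of an array to 500, and values were floored at 100 and log2 transformed. Probe sets were named from the platform annotation, and those with several symbols were set aside. Where several probe sets read the same gene in an experiment, their log2 ratios were averaged, leaving out those under the floor in both genotypes. The test was limma (version 3.58.1, R 4.3.3) on the 2 ratios, against 0, two-sided, with Benjamini-Hochberg adjustment over 3237 genes at 0.05. The shared prior (12.1 degrees of freedom) outweighs a gene's own spread, so p-values rest mostly on the spread of all genes. On simulated ratios it called 39.0% of 2-fold and 99.2% of 4-fold changes that were equal in both experiments. The 2 arrays of a type were compared as values, without a test. Every surface gene was named whatever its values, and of each list up to 4 genes with the largest ratios of the same sign in both experiments. Further genes of the lists, among them Cd79a, Csf1r and others at or near the floor, were named after their values were seen. The genes and lists were chosen with earlier results of these data known. Depth does not apply to arrays, and their number limits the precision.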

Additional observations from a re-analysis of the deposited data

Results flagged for a closer look

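The surface genes below had log2 ratios of opposite sign in the experiments, and none of these differences could be tested, since each experiment holds 1 array pair per probe set and its own array type. For Ly6d the log2 ratio of experiment 1 minus that of experiment 2 was 2.68, from 1.30 and -1.38. For Thy1 it was 0.59, from 0.41 and -0.17. For Cd52 it was 0.56, from 0.44 and -0.12. For Ly6e it was -0.059, from -0.01 and 0.05. Opposite signs were found for 45.7% of all genes, so by sign alone Thy1, Cd52 and Ly6e are unremarkable, whereas Ly6d was the 1 gene of 3237 at 2-fold or more in both directions.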

How the results depend on the processing

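No surface gene passed limma under any alternative run, with adjusted p values from 0.846 to 1 in the 11 paired settings. The count of all genes called was 5, and it was 0 in the unpaired fit (no replicate block), without a filter on low values and when the floor was lowered to 50, 1 with the brightest probe set, 2 among probe sets above the floor on both arrays, 8 after loess, 9 with probe sets of several symbols, 15 after quantile normalization and 27 with equal medians. The unpaired fit mixes levels of different array types. The Ly6d mean of -0.04 turned to 0.057 with equal medians and to 0.305 without a filter, where the dark U74A probe set enters with a ratio of 0. The Ly6e mean of 0.02 turned to -0.073 after loess. Its log2 ratio ran from -0.16 to 0.17 in experiment 1 and from 0.01 to 0.33 in experiment 2, highest with a floor of 50, where its dimmer U74A probe set enters. The cause was not tested for the scalings. In the 11 settings the Ly6d log2 ratio ran from 1.21 to 1.48 in experiment 1 and from -1.42 to -0.69 in experiment 2, so its opposite signs held in each of them. Those of Thy1 (0.24 to 0.59 and -0.27 to -0.16) and Cd52 (0.30 to 0.61 and -0.14 to -0.11) kept their opposite signs too, and Cd24a stayed negative (-0.40 to -0.09 and -0.08 to -0.02). The median of all genes in experiment 1 ran from -0.08 to 0.12, highest with equal medians. Leaving out experiment 1 gives the Ly6d value of experiment 2, -1.38, and leaving out experiment 2 gives 1.30, each with no test. The Ly6c2 mean of experiment 1, 1.38, was as high with a floor of 200, which all its readings exceed. In the 11 settings its log2 ratio in experiment 1 ran from 1.38 to 1.70, highest with the brightest probe set.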
